A study of Mus musculus with 12 samples.

Results

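The stress factors of the integrated stress response and the genes that make, import and charge amino acids, many of them known targets of the transcription factor ATF4, were followed through the series. The 40 genes were chosen by name, with earlier results of these data known. Their counts against all genes are therefore a description and no independent test. All 40 were found among the 41079 gene IDs of the tables. They comprised 12 stress factors, 9 genes of amino acid synthesis, 7 amino acid transporters and 12 cytosolic aminoacyl-tRNA synthetases. RNA abundance was measured in 12 libraries of mouse embryonic stem cells, the pluripotent cells of the early embryo, as TPM, a level scaled to transcript length and to a fixed total per library. The 4 groups held 3 libraries each: Bod1L KO cells given Tamoxifen and Etoposide, Bod1L KO cells given Tamoxifen, WT cells given Etoposide, and WT cells with no treatment. Bod1L is a subunit of a complex that methylates histone H3 at lysine 4, and etoposide is a topoisomerase II poison that leaves double-strand breaks in DNA. Only the KO titles name Tamoxifen, so the knockout and Tamoxifen cannot be told apart in any comparison of genotypes. Doses, exposure times and the number of cell lines or clones behind each genotype are not given in the sources used here.

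The integrated stress response starts with kinases that sense a stress such as lack of amino acids, misfolded protein in the endoplasmic reticulum, lack of haem or viral RNA, and that phosphorylate the initiation factor eIF2. Most translation then slows, while the ATF4 mRNA, which is held back by short upstream reading frames, is translated more, so that the mRNA level of Atf4 does not give the amount of ATF4 protein. ATF4 pairs with C/EBP proteins or with CHOP, the product of Ddit3, and binds composite C/EBP-ATF elements in the promoters of genes for amino acid synthesis, import and tRNA charging. Prolonged signalling also raises genes tied to cell death and feedback, such as Ddit3, Trib3 and Chac1.

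The core of that element, TGATGNAA (TTNCATCA on the other strand), was searched for on both strands in RefSeq promoter windows of 300 bases, from 250 before to 50 after each annotated start (GRCm38.p6). It was found in 13 of the 32 members with a window in the table (40.6%), against 1219 of 27025 genes with a window (4.51%). Members with the core numbered 5 of 12 stress factors, 2 of 8 synthesis genes, 1 of 4 transporters and 5 of 8 synthetases. The following promoter stretches, each 5′ to 3′ along the gene with the core in capitals, are shown because these genes share the core while their RNA rose, fell or passed no test in the comparisons that follow. Each is 60 bases from before the start, or 30 bases around the core where it lies past the start.
Chac1 (chr2:119351023-119351082, plus strand): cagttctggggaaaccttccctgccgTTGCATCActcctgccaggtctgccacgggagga
Herpud1 (chr8:94386291-94386350, plus strand): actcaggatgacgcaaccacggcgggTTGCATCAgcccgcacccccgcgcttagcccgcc
Nupr1 (chr7:126625547-126625606, minus strand): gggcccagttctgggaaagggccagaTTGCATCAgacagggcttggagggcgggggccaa
Trib3 (chr2:152344028-152344057, minus strand): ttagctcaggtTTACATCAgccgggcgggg
Asns (chr6:7693210-7693269, minus strand): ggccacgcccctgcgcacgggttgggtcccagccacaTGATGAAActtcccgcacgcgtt
Pycr1 (chr11:120643818-120643877, minus strand): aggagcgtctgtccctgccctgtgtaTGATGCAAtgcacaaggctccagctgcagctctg
Aars1 (chr8:111033704-111033763, plus strand): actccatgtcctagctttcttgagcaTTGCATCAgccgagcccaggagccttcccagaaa
Tars1 (chr15:11399659-11399718, minus strand): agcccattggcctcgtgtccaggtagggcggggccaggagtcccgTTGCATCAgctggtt
Iars1 (chr13:49682126-49682155, plus strand): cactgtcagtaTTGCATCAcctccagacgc
The core began 193 bases upstream of the start in Chac1, 112 in Herpud1, 110 in Nupr1, 23 in Asns and 15 in Tars1. Slc7a11 and Aars1 each held 2 copies, and Vldlr, Gars1 and Yars1 held 1 each. Cth, Slc7a5, Slc7a3, Slc1a5, Cars1, Lars1, Nars1 and Wars1 had no entry in the table. The endoplasmic reticulum stress element, a longer motif, was in none of the 32 members' windows and in 0.137% of the genes with a window. A match describes these letters only, and no factor binding was measured.

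**Figure D1:**
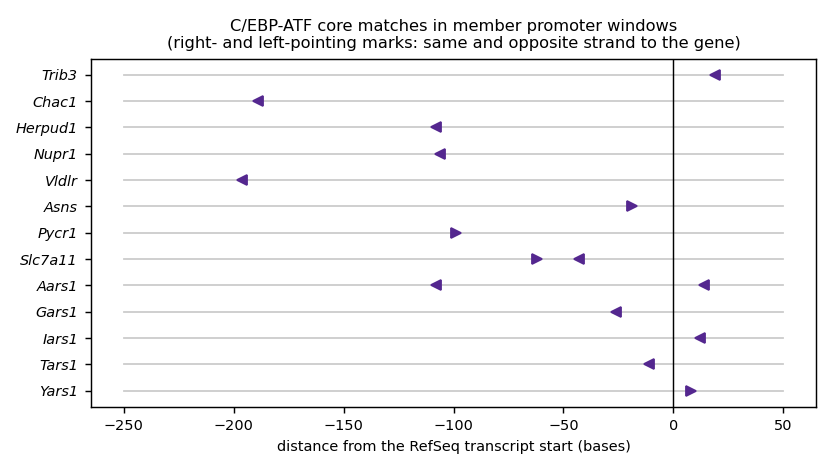
Position of the TGATGNAA core in the promoter windows of the 13 members that hold it, as bases from the annotated start (0 on the horizontal axis), with 1 row per gene. The positions spread over most of the upstream window, from 200 bases before the start in Vldlr to 15 bases after it in Trib3.

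Bod1l, the targeted gene (chr5:41944881-42001695, GRCm39), averaged 12.3 ± 0.602 TPM in KO cells with etoposide and 11.6 ± 0.415 TPM in untreated KO cells, against 48.7 ± 2.31 TPM in WT cells with etoposide and 49.3 ± 1.12 TPM in untreated WT cells (SD, n = 3 each). Aligned depth, taken from the ratio of coverage to FPKM, was 5.23 to 7.76 gigabases per library. The ratio used was the one shared by 27.6 to 28.2% of the genes above 1 FPKM. Depth was uneven between groups, at 6.88 to 7.76 gigabases in KO cells with etoposide and 5.23 to 6.51 in untreated KO cells. WT cells had 5.78 to 7.04 gigabases with etoposide and 6.64 to 7.30 without treatment. Of 8 embryonic stem cell markers, 7 were found, and their summed level was 6722 to 7045 TPM in KO cells with etoposide and 7068 to 7183 TPM in untreated KO cells, against 7350 to 7676 TPM in WT cells with etoposide and 7800 to 7824 TPM in untreated WT cells. Much of the sum was Dppa5a, at 3259 ± 15.9 TPM in untreated KO cells against 3806 ± 20.4 TPM in untreated WT cells. In KO cells Dppa5a, Pou5f1 and Utf1 were lower under both treatments, no marker was higher without etoposide, and Nanog, Zfp42 and Esrrb were higher with it, with median differences over the 7 of −0.015 without etoposide and 0.014 with it. The 8 feeder fibroblast markers summed to 67.6 to 71.3 TPM in KO cells with etoposide and 72.4 to 74.1 TPM in untreated KO cells, against 80.4 to 81.5 TPM in WT cells with etoposide and 74.8 to 85.1 TPM in untreated WT cells. Most of that sum was Fbln1, and Postn, Lum, Dcn and Col3a1 were at or under 0.226 TPM in every library. The part of the stem cell marker differences in the results below was not tested. In RNA from whole cultures, fewer cells of a type and less RNA per cell cannot be told apart.

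Changes below are differences of log2(TPM + 1) with their standard errors (SE), and the added 1 shrinks the change of weakly expressed genes. Each difference was tested with limma across the 14107 genes with a mean of at least 1 TPM, with Benjamini-Hochberg adjustment, and one with an adjusted p under 0.05 is said to have risen or fallen. Of the 40 members, 38 passed the filter. Slc7a11 and Vldlr did not. Among the 38, the lowest group mean was 1.93 TPM (Slc6a9 in untreated WT cells) and the highest 869 TPM (Asns in untreated KO cells), so no member passed through a single high group. The labels call the replicates biological but name no separate cultures, so p-values speak only to the spread among libraries, which may be technical.

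In untreated cells, 21 of the 38 members were higher in KO than in WT cells and 3 were lower, where 28.1% of all genes tested were higher and 21.5% lower (49.6% called in all). With etoposide, 23 were higher in KO cells and 2 lower, against a background of 22.5% higher and 21.7% lower (44.1% in all). The median difference of the members was 0.12 without etoposide and 0.13 with it, against 0.040 and 0.017 for all genes tested. These comparisons set separate libraries against each other but share 1 estimate of each gene's spread, so their calls are not independent. The same holds for the etoposide comparisons of the 2 genotypes below. In both, 18 members were higher in KO cells, which is 85.7% of those higher without etoposide and 78.3% of those higher with it. Over all genes tested these shares were 64.5% and 80.7%. Lars1 and Mars1 were lower in both.

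With etoposide more of the members fell than rose, in both genotypes. In KO cells 4 members rose with etoposide and 15 fell, where 14.5% of all genes tested rose and 10.5% fell (25.0% in all). In WT cells 5 rose and 25 fell, against 20.8% and 13.5% of all genes (34.3% in all). The count of 15 in KO cells was 9 without KO etoposide replicate 1 or KO untreated replicate 3, and 10 under quantile normalization. Median changes of the members were −0.095 in KO cells and −0.15 in WT cells, while those of all genes tested were 0.0018 in KO cells and 0.023 in WT cells. All 15 members that fell in KO cells also fell in WT cells, where they made up 60% of the 25. Over all genes tested, the genes that fell in both genotypes were 74.1% of those that fell in KO cells and 57.8% of those that fell in WT cells. Of the members, Trib3, Sesn2 and Cars1 rose in both genotypes. The genotype and etoposide comparisons share libraries, so their values are set side by side here and no overlap between them is counted. Under quantile normalization the balance of all genes in WT cells was 2166 higher and 2771 lower with etoposide, where TPM gave 2937 and 1904, while 6 members were higher and 24 lower. In KO cells it was 1784 higher and 1840 lower, against 2041 and 1484 with TPM, while 3 members were higher and 10 lower. With FPKM the balance of all genes between KO and WT was 3421 higher and 3432 lower in untreated cells, against 3961 and 3039 with TPM, and 2806 and 3287 with etoposide, against 3168 and 3060, while 17 members were higher and 4 lower without etoposide and 19 and 2 with it.

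**Figure D2:**
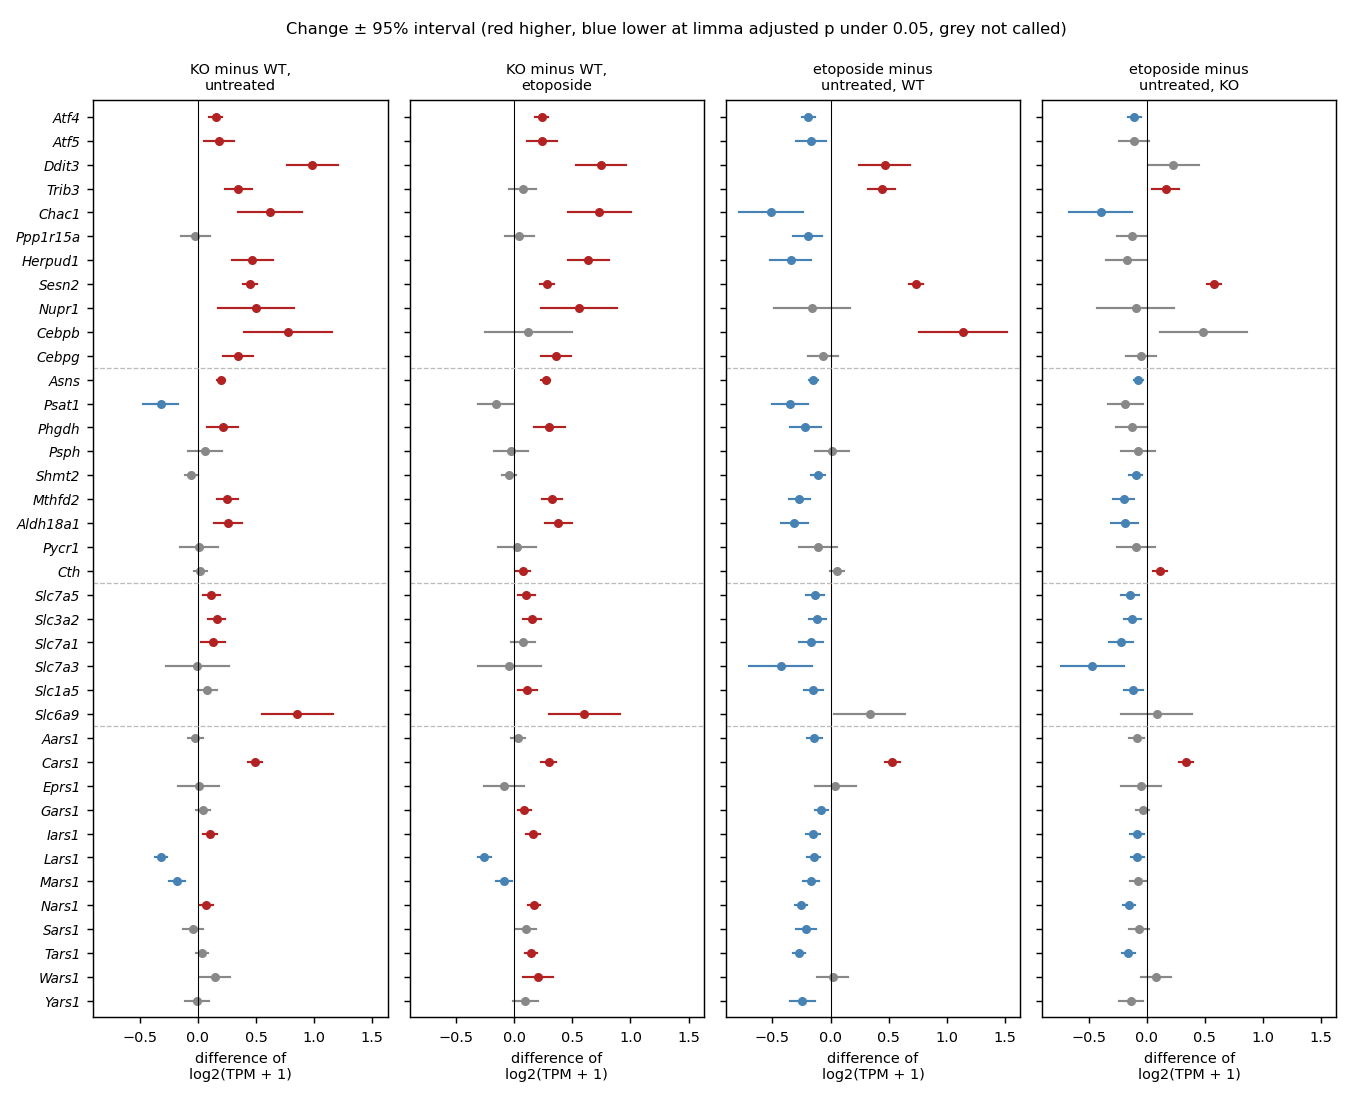
Differences of log2(TPM + 1) for the 38 tested members in 4 comparisons (horizontal axis, points with 95% intervals), with genes in rows by role. Most points lie right of 0 in both KO minus WT panels and left of 0 in both panels of etoposide minus untreated, and Sesn2 and Cars1 are the members that passed the test on the right side in all 4.

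Among the stress factors, 10 of the 11 tested were higher in untreated KO cells (90.9%, against 28.1% of all genes tested) and none was lower. With etoposide 8 of 11 were higher in KO cells (72.7%, against 22.5% of all genes). Ppp1r15a, which encodes the GADD34 subunit that dephosphorylates eIF2, did not pass the test in either comparison (−0.025 ± 0.057 without etoposide and 0.044 ± 0.057 with it). Summed over the 12 genes, the level was 684 ± 2.85 TPM in KO cells with etoposide and 628 ± 5.02 TPM in untreated KO cells, against 563 ± 3.19 TPM in WT cells with etoposide and 514 ± 4.87 TPM in untreated WT cells (SD, n = 3 each). With etoposide 2 of the 11 rose and 2 fell in KO cells (18.2% each, against 14.5% and 10.5% of all genes tested). In WT cells 4 rose and 5 fell (36.4% and 45.5%, against 20.8% and 13.5%). Median changes were −0.097 in KO cells and −0.16 in WT cells. The higher sums with etoposide came with Sesn2, which alone averaged 241 ± 0.814 TPM in KO cells with etoposide against 161 ± 5.99 TPM in untreated KO cells, and 198 ± 4.19 TPM in WT cells with etoposide against 118 ± 1.17 TPM in untreated WT cells, a wider gap than that of the sum in either genotype.

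Atf4 itself (chr15:80139385-80141746, GRCm39) stood at 258, 256 and 259 TPM in the KO libraries with etoposide and 278, 283 and 274 TPM in the untreated KO libraries. WT libraries had Atf4 at 217, 218 and 221 TPM with etoposide and 254, 256 and 240.2 TPM without treatment. All KO libraries lay above the WT libraries of the same treatment, and in each genotype the libraries with etoposide lay below the untreated ones. The KO minus WT difference was 0.15 ± 0.025 in untreated cells (limma adjusted p = 0.00036) and 0.24 ± 0.025 with etoposide (adjusted p = 1.44e-05). The change with etoposide was −0.11 ± 0.025 in KO cells (adjusted p = 0.00817) and −0.19 ± 0.025 in WT cells (adjusted p = 9.04e-05), and the call in KO cells ended under quantile normalization (0.0586).

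Ddit3 (chr10:127126662-127132160, GRCm39), which encodes the pro-apoptotic factor CHOP, held 22.4, 23.1 and 23.2 TPM in the KO libraries with etoposide and 19.4, 19.7 and 19.2 TPM in the untreated KO libraries. WT libraries had Ddit3 at 10.8, 14.4 and 15.0 TPM with etoposide and 8.74, 8.87 and 10.5 TPM without treatment. The 4 groups did not overlap, with the KO libraries of both treatments above every WT library. Its level in untreated KO cells was 2.08 times that in untreated WT cells, a difference of 0.98 ± 0.10 (limma adjusted p = 7.33e-06), and with etoposide the ratio was 1.71 (0.75 ± 0.10, adjusted p = 8.59e-05). In KO cells the change with etoposide of 0.23 ± 0.10 missed the threshold (95% interval 0.0097 to 0.45, adjusted p = 0.121), and it passed in a fit of the KO groups alone (adjusted p = 0.00941) and without WT etoposide replicate 1 (0.0206). In WT cells it rose (0.46 ± 0.10, adjusted p = 0.00322). The annotated ends of Ddit3 overlap Mars1 by 71 bases and Mbd6 by 77 bases, both on the opposite strand, and use of strand in the counting is not stated.

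Sesn2, which encodes a sestrin that senses leucine and restrains mTORC1 and is also a known p53 target, had 241, 239.9 and 240.3 TPM in the KO libraries with etoposide and 159, 156 and 168 TPM in the untreated KO libraries. WT libraries had Sesn2 at 200.1, 200.1 and 193 TPM with etoposide and 119, 118 and 117 TPM without treatment. No groups overlapped, and the libraries with etoposide of either genotype were above all untreated ones. KO exceeded WT by 0.45 ± 0.028 in untreated cells and by 0.28 ± 0.028 with etoposide (limma adjusted p = 1.35e-07 and 7.32e-06). Etoposide raised it by 0.58 ± 0.028 in KO cells and 0.74 ± 0.028 in WT cells (adjusted p = 5.68e-08 and 1.8e-09).

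Trib3 encodes a pseudokinase that feeds back on ATF4 and CHOP. Its levels were 30.4, 29.9 and 29.6 TPM in the KO libraries with etoposide and 26.9, 27.8 and 25.5 TPM in the untreated KO libraries. WT libraries had Trib3 at 29.7, 29.3 and 26.5 TPM with etoposide and 19.7, 21.5 and 21.1 TPM without treatment. The untreated groups were well apart, while KO and WT libraries with etoposide overlapped. The KO minus WT difference was 0.35 ± 0.053 in untreated cells (limma adjusted p = 0.000181) and 0.072 ± 0.053 with etoposide (95% interval −0.043 to 0.19, adjusted p = 0.296). The rise with etoposide in KO cells, 0.16 ± 0.053 (adjusted p = 0.0417), lost its call under 9 of 19 alternatives, among them without KO untreated replicate 3 (0.136), KO untreated replicate 1 (0.08), any KO etoposide library (0.0741 to 0.11) or WT untreated replicate 3 (0.0513). In WT cells it rose by 0.44 ± 0.053 (adjusted p = 3.98e-05). The difference between the genotypes' responses did not pass (−0.28 ± 0.075, adjusted p = 0.136).

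Chac1, an enzyme that degrades glutathione and a downstream target of ATF4 and CHOP, was low, at 4.67, 4.63 and 5.03 TPM in the KO libraries with etoposide and 5.85, 6.68 and 7.38 TPM in the untreated KO libraries. WT libraries had Chac1 at 2.84, 1.94 and 2.72 TPM with etoposide and 3.25, 4.33 and 4.38 TPM without treatment. Every KO library was above every WT library, and etoposide libraries were below the untreated ones of their genotype. The difference between KO and WT was 0.62 ± 0.13 in untreated cells (limma adjusted p = 0.0015) and 0.73 ± 0.13 with etoposide (adjusted p = 0.000566). With etoposide it changed by −0.40 ± 0.13 in KO cells (adjusted p = 0.036) and −0.51 ± 0.13 in WT cells (adjusted p = 0.00717). The call in KO cells ended under 7 of 19 alternatives, including without KO etoposide replicate 1, 2 or 3 (adjusted p = 0.0919, 0.0939 and 0.059) and without KO untreated replicate 2 or 3 (0.0852 and 0.121).

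Herpud1, a component of the machinery that removes misfolded protein from the endoplasmic reticulum, stood at 17.2, 15.3 and 14.8 TPM in the KO libraries with etoposide and 19.2, 17.3 and 17.1 TPM in the untreated KO libraries. WT libraries had Herpud1 at 9.39, 11.0 and 8.98 TPM with etoposide and 12.1, 13.5 and 12.3 TPM without treatment. Its KO libraries were all above the WT libraries, with overlap between the KO groups only. KO exceeded WT by 0.47 ± 0.081 without etoposide and by 0.64 ± 0.081 with it (limma adjusted p = 0.000525 and 6.04e-05). With etoposide the change in KO cells was −0.17 ± 0.081 (adjusted p = 0.147), and it fell in WT cells (−0.34 ± 0.081, adjusted p = 0.00596).

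Nupr1, a small stress-induced chromatin protein, varied more between replicates, at 35.4, 29.2 and 28.6 TPM in the KO libraries with etoposide and 32.3, 38.9 and 29.0 TPM in the untreated KO libraries. WT libraries had Nupr1 at 23.2, 17.9 and 21.4 TPM with etoposide and 18.5, 23.9 and 28.3 TPM without treatment. The KO libraries were above the WT libraries of the same treatment, by only a small gap in the untreated groups. The difference was 0.50 ± 0.15 in untreated cells (limma adjusted p = 0.0159), which missed the threshold without KO untreated replicate 2 (0.0687) or WT untreated replicate 1 (0.0684), and 0.56 ± 0.15 with etoposide (adjusted p = 0.01). Neither etoposide comparison passed (−0.10 ± 0.15 in KO cells and −0.16 ± 0.15 in WT cells).

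Cebpb, one of the C/EBP partners of ATF4, had 5.62, 5.86 and 7.70 TPM in the KO libraries with etoposide and 3.67, 3.52 and 5.80 TPM in the untreated KO libraries. WT libraries had Cebpb at 6.59, 5.19 and 5.54 TPM with etoposide and 1.79, 1.79 and 2.70 TPM without treatment. Untreated WT cells were the low group, below all 9 other libraries, and the groups with etoposide overlapped. KO exceeded WT by 0.77 ± 0.17 in untreated cells (limma adjusted p = 0.00278) but by 0.12 ± 0.17 with etoposide (adjusted p = 0.604). With etoposide the change in KO cells was 0.49 ± 0.17 (adjusted p = 0.0589), and the rise in WT cells was 1.14 ± 0.17 (adjusted p = 0.000262), the largest of any member in that comparison. The change in KO cells passed with the replicate number as a block (0.0219), without KO untreated replicate 3 (0.0101) and without WT untreated replicate 3 (0.0477).

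The other partner gene, Cebpg, was higher in KO cells under both treatments (0.35 ± 0.059 and 0.36 ± 0.059) and did not pass in either etoposide comparison. Atf5, an ATF4 relative under similar translational control, was higher in KO cells by 0.18 ± 0.059 and 0.24 ± 0.059. Its untreated call ended with FPKM (limma adjusted p = 0.0604) and without KO untreated replicate 2 (0.0912) or WT untreated replicate 3 (0.0749), and it shares 571 annotated bases with Nup62 on the opposite strand. In WT cells etoposide lowered Atf5 (−0.17 ± 0.059) and Ppp1r15a (−0.20 ± 0.057), calls that ended under 7 and 3 of 19 alternatives (adjusted p up to 0.109 and 0.0727). Vldlr, a lipoprotein receptor reported as an ATF4 target, was under the filter, at 0.339, 0.377 and 0.316 TPM in the KO libraries with etoposide and 0.388, 0.458 and 0.478 TPM in the untreated KO libraries. WT libraries had Vldlr at 0.265, 0.0967 and 0.261 TPM with etoposide and 0.156, 0.253 and 0.261 TPM without treatment. Its KO libraries were above the WT libraries of the same treatment, with no test in the main fit. In the alternative without the filter Vldlr was called higher in untreated KO cells.

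**Figure D3:**
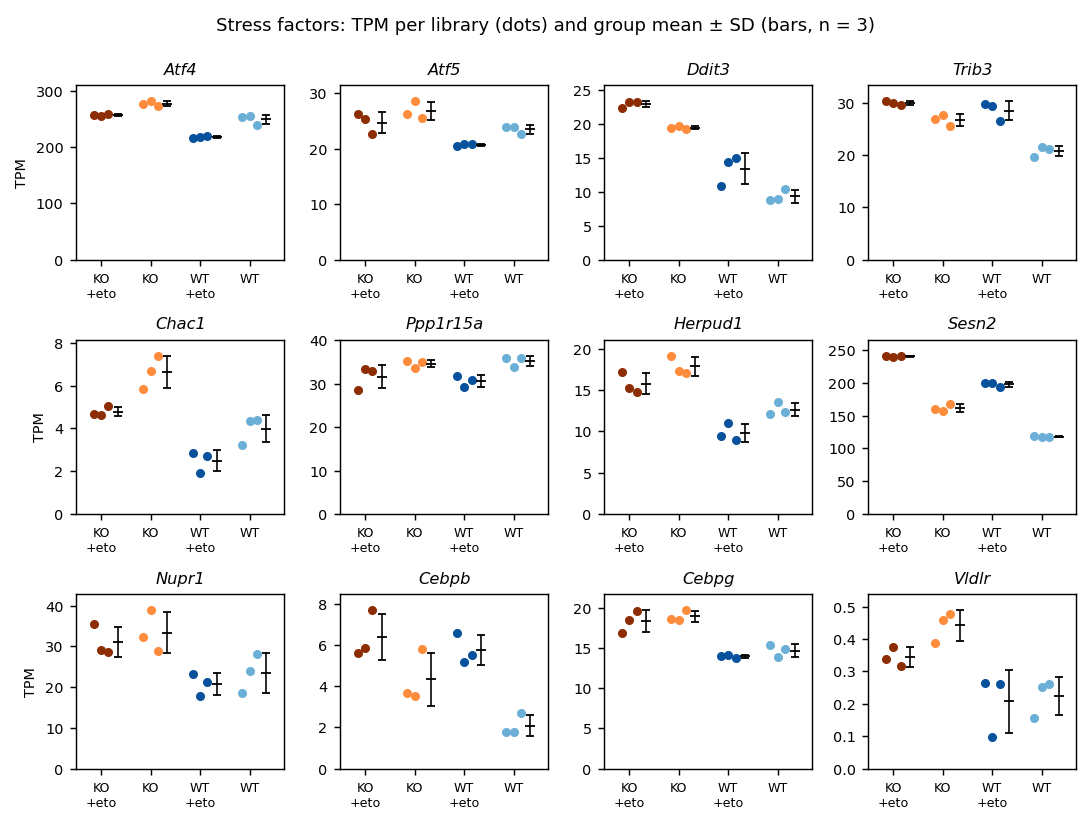
TPM of each stress factor in every library (dots) with the group mean and SD (bars, n = 3), 1 panel per gene with its own vertical axis from 0. Ddit3, Chac1, Herpud1, Cebpg and Vldlr are higher in every KO library than in any WT library, as are Atf4 and Nupr1 by small gaps. Sesn2 is high in both groups with etoposide, and Cebpb is lowest in untreated WT cells.

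Of the 9 genes of amino acid synthesis, 4 were higher and 1 lower in untreated KO cells (44.4% and 11.1%, against 28.1% and 21.5% of all genes tested). With etoposide 5 were higher in KO cells (55.6%, against 22.5%) and none lower. In response to etoposide, 4 fell in KO cells and 6 in WT cells (44.4% and 66.7%, against 10.5% and 13.5%). Only 1, Cth, rose, in KO cells (11.1%, against 14.5%). Asns, asparagine synthetase and a long-studied ATF4 target (chr6:7675169-7693209, GRCm39), was the member with the highest level, at 824, 818 and 833 TPM in the KO libraries with etoposide and 875, 862 and 869 TPM in the untreated KO libraries. WT libraries had Asns at 686, 691 and 673 TPM with etoposide and 756, 750.2 and 764 TPM without treatment. The groups did not overlap, and the 6 KO libraries were all above the 6 WT libraries. KO exceeded WT by 0.20 ± 0.017 in untreated cells and 0.27 ± 0.017 with etoposide (limma adjusted p = 1.97e-06 and 1.97e-07). With etoposide Asns changed by −0.075 ± 0.017 in KO cells and −0.15 ± 0.017 in WT cells (adjusted p = 0.0075 and 3.42e-05).

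The enzymes of serine and glycine synthesis differed from each other. Phgdh, the first enzyme of serine synthesis, averaged 70.0 ± 0.302 TPM in KO cells with etoposide and 77.0 ± 6.94 TPM in untreated KO cells, against 56.7 ± 2.57 TPM in WT cells with etoposide and 66.1 ± 4.29 TPM in untreated WT cells, and was higher in KO under both treatments (0.21 ± 0.061 and 0.30 ± 0.061). The untreated call rested narrowly on WT untreated replicate 1 (limma adjusted p = 0.0508 without it). Psat1, the next enzyme, went the other way: it averaged 104 ± 6.02 TPM in untreated KO cells against 130.1 ± 15.6 TPM in untreated WT cells (−0.32 ± 0.069, adjusted p = 0.00231). It fell with etoposide in WT cells (−0.35 ± 0.069, adjusted p = 0.00194), and its KO minus WT difference with etoposide was −0.16 ± 0.069 (adjusted p = 0.0848). That difference passed in a fit of the compared groups alone (0.0103) and without WT untreated replicate 1 (0.014). Psph, the last enzyme, passed in no comparison of the main fit, with differences of 0.063, −0.025, 0.016 and −0.072 for KO minus WT untreated, KO minus WT with etoposide, etoposide in WT and etoposide in KO cells. Its untreated difference passed without KO untreated replicate 2 (0.149, limma adjusted p = 0.0363). Shmt2, the mitochondrial enzyme that turns serine into glycine, differed by −0.057 ± 0.026 and −0.046 ± 0.026 between genotypes, without passing in the main fit. The untreated difference passed with FPKM (−0.085, limma adjusted p = 0.0315) and with median-of-ratios scaling (−0.079, adjusted p = 0.0327). Shmt2 fell with etoposide in KO (−0.10 ± 0.026) and in WT cells (−0.11 ± 0.026), the KO call ending under 4 of 19 alternatives (adjusted p up to 0.0777).

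Mthfd2, the next enzyme of mitochondrial one-carbon metabolism, averaged 74.1 ± 2.70 TPM in KO cells with etoposide and 85.1 ± 4.40 TPM in untreated KO cells, against 58.9 ± 0.664 TPM in WT cells with etoposide and 71.2 ± 2.25 TPM in untreated WT cells. It was higher in KO cells by 0.25 ± 0.041 untreated and 0.32 ± 0.041 with etoposide, and changed with etoposide by −0.20 ± 0.041 in KO cells and −0.27 ± 0.041 in WT cells, with limma adjusted p of 0.000308, 5.45e-05, 0.00373 and 0.000268. Aldh18a1, which opens proline synthesis, ordered the groups likewise, at 32.5 ± 0.572 TPM in KO cells with etoposide and 37.2 ± 1.65 TPM in untreated KO cells, against 24.8 ± 2.04 TPM in WT cells with etoposide and 31.0 ± 0.186 TPM in untreated WT cells. Its KO minus WT differences were 0.26 ± 0.054 and 0.38 ± 0.054, and its etoposide changes −0.19 ± 0.054 in KO cells and −0.31 ± 0.054 in WT cells. The call in KO cells was lost without KO etoposide replicate 1 or 3 or KO untreated replicate 1 or 3 (adjusted p up to 0.0825). Pycr1, the closing enzyme of that pathway, did not pass in any comparison of the main fit, with the core printed above in its promoter. Its change with etoposide in WT cells passed under quantile normalization (−0.233, limma adjusted p = 0.0386). Cth, which makes cysteine from cystathionine, was higher in KO cells with etoposide (0.076 ± 0.027, adjusted p = 0.0368), a call lost under 9 of 19 alternatives (adjusted p up to 0.116), and rose with etoposide in KO cells (0.11 ± 0.027, adjusted p = 0.00923).

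Of the 7 transporters 6 were tested. In untreated cells 4 were higher in KO (66.7%, against 28.1% of all genes tested) and none lower. The counts were again 4 and none with etoposide (66.7%, against 22.5%). In either genotype 5 fell with etoposide (83.3%, against 10.5% of all genes in KO and 13.5% in WT cells) and none rose. Slc6a9, the glycine transporter GLYT1, was low and had 4.72, 5.69 and 3.56 TPM in the KO libraries with etoposide and 4.09, 4.07 and 4.67 TPM in the untreated KO libraries. WT libraries had Slc6a9 at 2.64, 2.89 and 2.52 TPM with etoposide and 1.48, 2.07 and 2.25 TPM without treatment. Every KO library was above every WT library. The differences were 0.85 ± 0.14 in untreated cells (limma adjusted p = 0.00033) and 0.60 ± 0.14 with etoposide (adjusted p = 0.00424), and it shares 557 annotated bases with Ccdc24 on the opposite strand. Its change with etoposide was 0.084 ± 0.14 in KO cells (adjusted p = 0.716) and 0.34 ± 0.14 in WT cells (adjusted p = 0.0855, and 0.0449 without KO etoposide replicate 3).

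Slc7a3, a carrier of arginine and other cationic amino acids, stood at 134, 134 and 107 TPM in the KO libraries with etoposide and 172, 170.3 and 176 TPM in the untreated KO libraries. WT libraries had Slc7a3 at 135, 125 and 126 TPM with etoposide and 137, 182 and 209 TPM without treatment. Untreated WT libraries ranged widely, KO and WT libraries overlapped under both treatments, and in each genotype the libraries with etoposide were lower. The changes with etoposide were −0.47 ± 0.12 in KO cells (limma adjusted p = 0.0151) and −0.43 ± 0.12 in WT cells (adjusted p = 0.0174). The WT call ended without WT untreated replicate 2 or 3 (0.0583 and 0.0712) or WT etoposide replicate 2 or 3 (0.0521 and 0.0513), and the KO call without KO etoposide replicate 3 (0.0633). Snx12 lies on the same strand and shares 1086 annotated bases with it.

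Slc7a5 and Slc3a2 encode the light and heavy chains of LAT1, which imports leucine and other large neutral amino acids. Slc7a5 averaged 201 ± 4.35 TPM in KO cells with etoposide and 223 ± 8.64 TPM in untreated KO cells, against 187 ± 1.39 TPM in WT cells with etoposide and 206 ± 8.67 TPM in untreated WT cells. Slc3a2 averaged 220.3 ± 7.83 TPM in KO cells with etoposide and 240.3 ± 6.48 TPM in untreated KO cells, against 198 ± 5.66 TPM in WT cells with etoposide and 215 ± 5.98 TPM in untreated WT cells. Both were higher in KO under both treatments, by 0.12 ± 0.035 without etoposide and 0.10 ± 0.035 with it for Slc7a5, and by 0.16 ± 0.034 and 0.15 ± 0.034 for Slc3a2. Both fell with etoposide, with changes of −0.14 ± 0.035 in KO and −0.13 ± 0.035 in WT cells for Slc7a5 and −0.12 ± 0.034 in KO and −0.12 ± 0.034 in WT cells for Slc3a2. The arginine carrier Slc7a1 and the glutamine carrier Slc1a5 also fell with etoposide in KO (−0.22 ± 0.048 and −0.12 ± 0.038) and WT cells (−0.16 ± 0.048 and −0.15 ± 0.038). Slc7a1 was higher in KO without etoposide (0.13 ± 0.048), and Slc1a5 with it (0.11 ± 0.038). Of the 14 calls on these 4 carriers, 8 ended under at least 1 alternative, with limma adjusted p of 0.067 to 0.148 at the highest. Those of Slc7a5 between genotypes, for example, ended without KO untreated replicate 1 or 3 or WT untreated replicate 1 in untreated cells and without any WT etoposide library, or KO etoposide replicate 1 or 2, with etoposide. The fall of Slc1a5 in KO cells lost its call with any single KO or WT etoposide library left out (adjusted p up to 0.148). The untreated call of Slc7a1 ended with FPKM, with median-of-ratios scaling and without KO or WT untreated replicate 1 (up to 0.136).

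Slc7a11, which imports cystine in exchange for glutamate and whose promoter window holds the core in 2 copies, was under the filter, at 0.228, 0.293 and 0.227 TPM in the KO libraries with etoposide and 0.223, 0.290 and 0.306 TPM in the untreated KO libraries. WT libraries had Slc7a11 at 0.0603, 0.0568 and 0.0421 TPM with etoposide and 0.0496, 0.0346 and 0.0496 TPM without treatment. All 6 KO libraries were above all 6 WT libraries, with no test in the main fit. The alternative without the filter did cover Slc7a11 and Vldlr. Both were among the 22 members it called higher in untreated KO cells. The levels of Slc7a11, like those of Vldlr, were below those of the 38 tested members in every library.

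**Figure D4:**
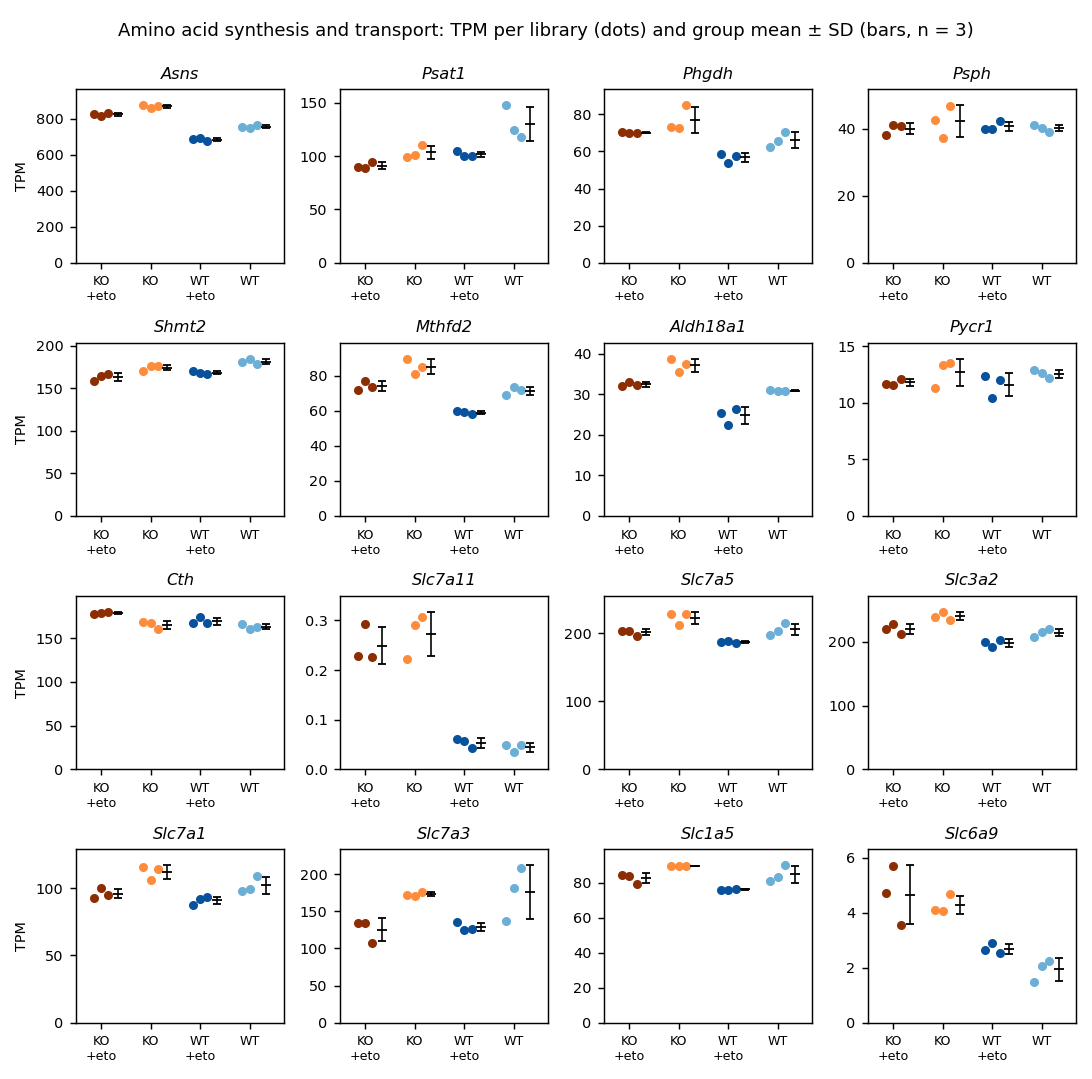
TPM of the 9 synthesis genes and 7 transporters in every library (dots) with the group mean and SD (bars, n = 3), 1 panel per gene with its own vertical axis from 0. Asns, Aldh18a1, Slc6a9 and Slc7a11 are higher in every KO library than in any WT library, Psat1 is highest in untreated WT cells, and Psph shows no separation.

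The 12 cytosolic synthetases, the enzymes that join amino acids to their tRNAs, included genes higher and genes lower in KO cells. In untreated cells 3 were higher in KO (25.0%), 2 were lower (16.7%) and 7 did not pass, shares near the 28.1% and 21.5% of all genes tested. With etoposide 6 were higher (50%) and 2 lower (16.7%), against 22.5% and 21.7% of all genes. With etoposide 4 fell in KO cells and 9 in WT cells (33.3% and 75.0%, against 10.5% and 13.5% of all genes). Only 1, Cars1, rose in both (8.33%, against 14.5% of all genes in KO and 20.8% in WT cells). Cars1, which charges cysteine tRNA (chr7:143110967-143153827, GRCm39), stood at 213, 216 and 206 TPM in the KO libraries with etoposide and 166, 168 and 166 TPM in the untreated KO libraries. WT libraries had Cars1 at 178, 167 and 171 TPM with etoposide and 117, 121 and 118 TPM without treatment. Untreated WT cells were lowest, KO cells with etoposide highest, and no compared groups overlapped. KO exceeded WT by 0.49 ± 0.029 in untreated cells and 0.30 ± 0.029 with etoposide (limma adjusted p = 8.22e-08 and 6.72e-06), and etoposide raised it by 0.34 ± 0.029 in KO cells and 0.53 ± 0.029 in WT cells (adjusted p = 4.45e-06 and 3.6e-08).

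Lars1, the leucine enzyme, averaged 120.0 ± 2.28 TPM in KO cells with etoposide and 127 ± 2.64 TPM in untreated KO cells, against 144 ± 0.644 TPM in WT cells with etoposide and 159 ± 3.28 TPM in untreated WT cells, and was lower in KO, with differences of −0.32 ± 0.026 without etoposide and −0.26 ± 0.026 with it (limma adjusted p = 1.03e-06 and 7.32e-06). Mars1, the methionine enzyme that overlaps Ddit3, was also lower in KO, with differences of −0.18 ± 0.031 without etoposide (adjusted p = 0.000451) and −0.085 ± 0.031 with it, and this second call ended under 9 of 19 alternatives (adjusted p up to 0.16), including without any KO etoposide library. Nars1 and Iars1, for asparagine and isoleucine, were higher in KO under both treatments (0.073 and 0.17 for Nars1, 0.10 and 0.16 for Iars1). The untreated call of Nars1 ended under 7 of 19 alternatives (adjusted p up to 0.187), among them without KO untreated or WT untreated replicate 1 or 3, and that of Iars1 with FPKM (0.0612). Gars1, Tars1 and Wars1, for glycine, threonine and tryptophan, passed the test for KO over WT with etoposide but not without it (0.088 ± 0.027, 0.15 ± 0.024 and 0.20 ± 0.060 with etoposide), and their responses to etoposide were not shown to differ between genotypes (0.044 ± 0.038, 0.11 ± 0.034 and 0.061 ± 0.085, adjusted p = 0.735, 0.2 and 0.856). The Wars1 call missed the threshold without KO etoposide replicate 3 (0.0551) and that of Gars1 without KO etoposide replicate 3 (0.0756) or WT etoposide replicate 2 (0.0752), with FPKM (0.0657) and under quantile normalization (0.0788). Tars1 had the largest fall of a synthetase in WT cells with etoposide (−0.27 ± 0.024, adjusted p = 3.4e-06), with Nars1 (−0.25 ± 0.025) and Yars1, the tyrosine enzyme (−0.24 ± 0.048), next to it. Eprs1, for glutamate and proline, passed in no comparison and had the widest spread of the 12.

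Of 10 cytosolic synthetases and scaffold proteins outside the 40 genes, 1 was higher and 6 were lower in untreated KO than in untreated WT cells. These were 10% and 60%, against 28.1% and 21.5% of all genes tested, with a median difference of −0.12. With etoposide 2 were higher and 4 lower in KO than in WT cells (20% and 40%, against 22.5% and 21.7%). Farsb, a subunit of the phenylalanine enzyme, averaged 104 ± 3.35 TPM in untreated KO cells against 170.3 ± 2.96 TPM in untreated WT cells (−0.71 ± 0.039, limma adjusted p = 4.44e-08). Vars1, the valine enzyme, differed by −0.32 ± 0.027 and the scaffold Aimp1 by −0.25 ± 0.029. Etoposide lowered 3 of the 10 in KO cells and 5 in WT cells (30% and 50%, against 10.5% and 13.5% of all genes), and raised none.

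**Figure D5:**
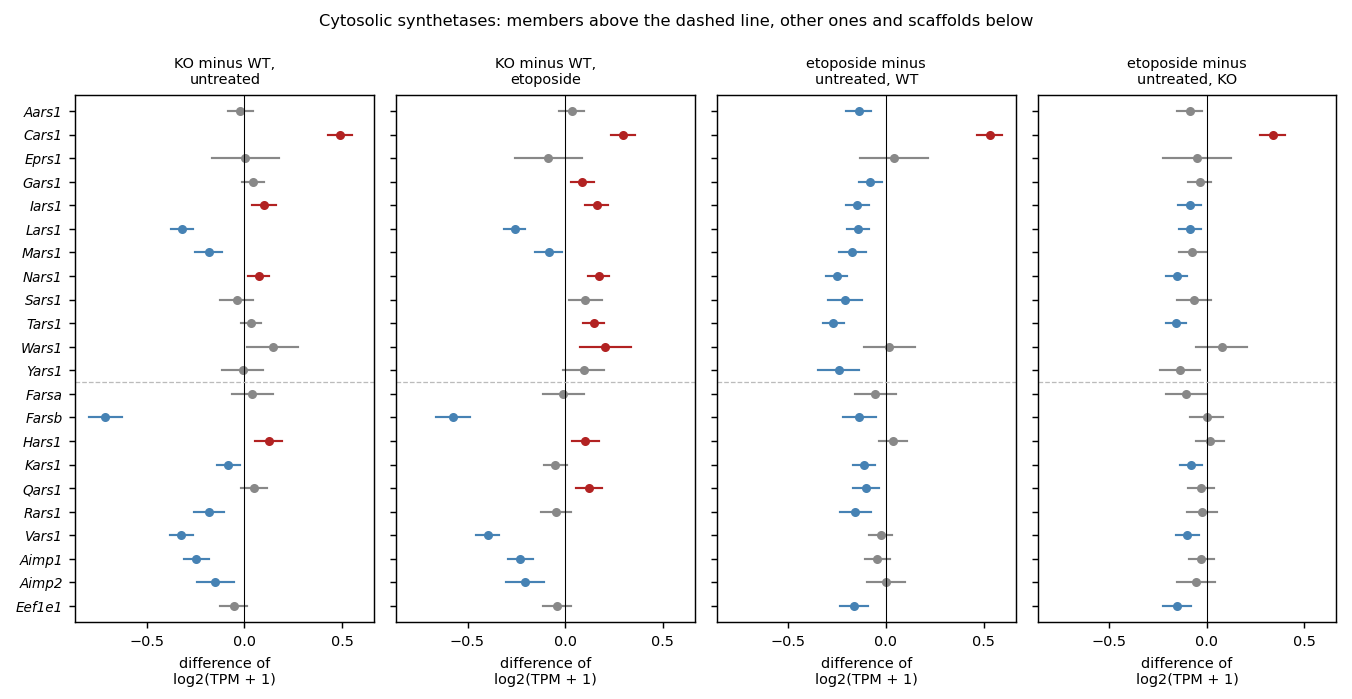
Differences of log2(TPM + 1) with 95% intervals for the 12 synthetases of the gene set (above the dashed line) and 10 other cytosolic synthetases and scaffolds (below it) in 4 comparisons, colored where the test passed. Cars1 is the only one of the 12 above the line that rose in all 4, and Farsb has the lowest KO minus WT differences of those drawn.

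The response to etoposide itself was compared between genotypes as the change in KO cells minus the change in WT cells. Of the 38 members none was higher and 1, Cars1, was lower, against 0.0709% higher and 1.16% lower of all genes tested (1.23% in all). Its difference was −0.19 ± 0.041 (95% interval −0.28 to −0.10, limma adjusted p = 0.0449), a rise in both genotypes that was smaller in KO cells, whose untreated level was already higher. That call did not hold under 16 of 18 alternatives, with adjusted p from 0.0399 to 0.161, including without any single KO library, any untreated WT library or WT etoposide replicate 1 or 3. The median over the members was 0.057, against −0.023 for all genes. Unadjusted 95% intervals for the leading stress factors were −0.55 to 0.070 for Ddit3, −0.25 to −0.077 for Sesn2, −0.44 to −0.11 for Trib3 and −1.19 to −0.12 for Cebpb, and none of the 4 passed (adjusted p = 0.585, 0.0869, 0.136 and 0.31).

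Upstream of ATF4, the eIF2 kinases and the regulators of eIF2 differed by small amounts. Of 13 genes 3 were higher and 3 lower in untreated KO cells, with a median difference of 0.044. These shares, 23.1% each, and the median were near those of all genes tested (28.1%, 21.5% and 0.040). Eif2ak3, which encodes the endoplasmic reticulum sensor PERK, averaged 29.0 ± 0.789 TPM in untreated KO cells against 23.3 ± 1.14 TPM in untreated WT cells (0.30 ± 0.045, limma adjusted p = 0.000144). Eif2ak1, the haem-regulated kinase, and Gcn1, which helps activate the amino acid sensor GCN2, were higher by 0.18 ± 0.033 and 0.18 ± 0.032, and Eif2s1, the phosphorylated subunit of eIF2, was lower (−0.11 ± 0.024). With etoposide 4 were higher and 1 lower in KO than in WT cells (30.8% and 7.69%, against 22.5% and 21.7% of all genes). The lower one was Eif2ak2, the RNA-activated kinase PKR (−0.24 ± 0.046, limma adjusted p = 0.00141). Without etoposide Eif2ak2 also averaged less in KO cells, at 32.6 ± 1.11 TPM against 38.0 ± 1.77 TPM in WT cells. Etoposide lowered 2 in KO cells (15.4%, against 10.5% of all genes). In WT cells it raised 2 and lowered 4 (15.4% and 30.8%, against 20.8% and 13.5%). Ppp1r15b, the constitutive partner that dephosphorylates eIF2, was lower with etoposide in both (−0.16 ± 0.032 in KO and −0.18 ± 0.032 in WT cells).

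Among 15 further ATF4 targets, 13 were tested, and 6 were higher and 1 lower in untreated KO cells (46.2% and 7.69%, median 0.076), against 28.1% and 21.5% of all genes tested. Atf3, a stress-induced transcription factor, averaged 3.02 ± 0.849 TPM in untreated KO cells against 0.658 ± 0.182 TPM in untreated WT cells (1.26 ± 0.16, limma adjusted p = 3.61e-05). Ddit4, an mTORC1 inhibitor that p53 also induces, averaged 156 ± 2.31 TPM in KO cells with etoposide and 67.5 ± 3.71 TPM in untreated KO cells, against 125 ± 12.9 TPM in WT cells with etoposide and 36.1 ± 3.15 TPM in untreated WT cells. It rose with etoposide by 1.19 ± 0.073 in KO cells and 1.76 ± 0.073 in WT cells, and the rise was smaller in KO cells (−0.57 ± 0.10, adjusted p = 0.0203). Gdf15, a secreted stress signal that p53 also induces, likewise rose by 0.47 ± 0.084 in KO cells and 1.04 ± 0.084 in WT cells, with a difference of −0.57 ± 0.12 (adjusted p = 0.0414). Under the alternatives 0 to 2 of these differences were called. Mthfd1l, a mitochondrial one-carbon enzyme, and Pck2, mitochondrial phosphoenolpyruvate carboxykinase, fell with etoposide in KO (−0.28 ± 0.036 and −0.24 ± 0.062) and in WT cells (−0.26 ± 0.036 and −0.30 ± 0.062).

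Genes of the neighbouring branch of the stress response, the chaperones and folding enzymes of the endoplasmic reticulum under ATF6 and XBP1, were mostly higher in untreated KO cells. There 15 of 19 were higher (78.9%) and 1 lower (5.26%), against 28.1% and 21.5% of all genes tested, with a median difference of 0.19, and the count of higher genes was 11 to 15 under the alternatives. The chaperone Hyou1 averaged 290.4 ± 5.27 TPM in untreated KO cells against 231 ± 4.34 TPM in untreated WT cells (0.33 ± 0.029, limma adjusted p = 2.37e-06). Syvn1, the ubiquitin ligase HRD1, was higher by 0.38 ± 0.036, the co-chaperone Dnajb11 by 0.34 ± 0.038 and Creld2, another secretory pathway stress gene, by 0.36 ± 0.045. Xbp1 itself went the other way, at 59.7 ± 3.30 TPM in untreated KO cells against 68.7 ± 3.28 TPM in untreated WT cells. Its means with etoposide were 60.8 TPM in KO and 69.1 TPM in WT cells. Differences were small in untreated cells for Hspa5 (1113 ± 20.0 TPM in KO, 1091 ± 51.8 TPM in WT) and Hsp90b1 (1293 ± 39.2 and 1245 ± 55.9 TPM). The same held for Manf (330 ± 9.72 and 334 ± 5.52 TPM). With etoposide 9 were higher in KO than in WT cells (47.4%, against 22.5% of all genes), 1 was lower and 9 did not pass, and 7 to 10 were higher under the alternatives. Etoposide raised 1 and lowered 5 in KO cells (5.26% and 26.3%, against 14.5% and 10.5% of all genes). Among those lowered were the disulfide isomerase Pdia4 (−0.15 ± 0.024) and the sensor gene Atf6 (−0.20 ± 0.047). In WT cells it raised 2 (10.5%, against 20.8%) and lowered none.

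In untreated cells, 6 of the 11 tested members with the TGATGNAA core in their promoter window were higher in KO and none was lower, namely Trib3, Chac1, Herpud1, Nupr1, Asns and Iars1. Of the 19 tested members with a window and no core, 12 were higher and 2, Psat1 and Mars1, were lower. In KO against WT cells with etoposide, 7 of the 11 with the core were higher and none lower. Of the 19 without it, 10 were higher and 1, Mars1, was lower. Over all genes tested 28.1% were higher and 21.5% lower without etoposide, and 22.5% and 21.7% with it. With etoposide in WT cells, 8 of the 11 with the core fell and 1, Trib3, rose, while of the 19 without it 12 fell and 3 rose, namely Ddit3, Sesn2 and Cebpb. In KO cells 4 of the 11 fell and 1, Trib3, rose, while of the 19 without the core 6 fell and 1, Sesn2, rose. Etoposide lowered 13.5% of all genes tested in WT cells and 10.5% in KO cells, and raised 20.8% and 14.5%. The core stood in genes that moved in either direction and in genes that passed no test in the main fit, such as Pycr1.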

How the data were processed

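Per the labels, poly(A)-selected RNA was made into strand-specific libraries with ribosomal RNA removal. Per the submitters' processing notes, the tools were Trim Galore 0.6.6, cutadapt 3.4, HISAT2 2.2.1 and StringTie 2.2.1, and the build GRCm39. Per the file headers, the deposited TPM and FPKM values are StringTie gene abundances, TPM scaled to a fixed total per library and FPKM to mapped fragments, and the deposited coverage signal is the mean read depth over a gene. Depth came from the ratio of coverage to FPKM, and how multimapped reads were counted is not stated.

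Values listed under 1 gene ID were added up. Of these IDs, 14107 averaged at least 1 TPM and entered limma with a variance trend on log2(TPM + 1), with 4 group means, 5 comparisons, two-sided tests and Benjamini-Hochberg adjustment over all genes within each comparison (threshold 0.05; prior degrees of freedom 3.91, residual 8). On simulated data for untreated KO against WT, with 50 of 14107 genes changed per size, 32%, 68%, 90% and 98% of changes of 0.25, 0.5, 1 and 2 were called, with 9 false calls. Far fewer genes differed there than the 49.6% called in the data, and the adjustment depends on that share. These figures therefore do not give the recovery or the false calls in the data. Alternatives were a pseudocount of 0.1, no filter on low values (27304 genes), FPKM in place of TPM, quantile and median-of-ratios scaling, a replicate block, the compared groups alone, and each library left out.

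The members and gene lists were chosen with earlier results of these data known. Values in every library are given for members past a test with a change of at least 0.4, for Atf4, Ddit3 and Asns, and for the 2 members under the filter, which were added after their values were seen. Other members are given by group means and counts, and from each further list up to 4 genes with the lowest adjusted p of a comparison. Outside that rule, Hspa5, Hsp90b1 and Manf were named for their small differences in untreated cells. A few genes of these further lists are not reported here. Read counts were not used here, so no count model was run. Promoter sequences are RefSeq's (GRCm38.p6), and most synthetases were matched through synonyms. The software was Python 3.11.15, pandas 2.3.3, numpy 2.4.6, matplotlib 3.10.9, R 4.3.3 and limma 3.58.1.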

Additional observations from a re-analysis of the deposited data

Results flagged for a closer look

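The change of Cars1 with etoposide differed between the genotypes: the change in KO cells minus that in WT cells was −0.193 on the log2(TPM + 1) scale (SE 0.041, limma adjusted p = 0.0449), with a rise of 0.34 ± 0.029 in KO cells and 0.53 ± 0.029 in WT cells. All 3 libraries with etoposide lay above all 3 untreated ones in either genotype. Of the 38 members tested for this difference it was the 1 that passed, and under the 18 alternatives its value ranged from −0.214 to −0.168 with adjusted p from 0.0399 to 0.161. The call ended under most of these alternatives.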

How the results depend on the processing

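No member changed direction past the threshold under any alternative run. Of the members' calls, 17 of 24 held under every alternative for untreated KO against WT, 19 of 25 for KO against WT with etoposide, 22 of 30 for etoposide in WT cells, 9 of 19 for etoposide in KO cells and 0 of 1 for the difference between responses. Members lower in KO with etoposide numbered 1 without the filter and 1 with the replicate block, against 2. The count of members whose response was lower in KO cells was 0 with FPKM, median-of-ratios scaling, no filter, quantile normalization and the replicate block, against 1. For all genes, responses higher in KO numbered 6 without the filter and 6 with the replicate block, against 10, and lower ones 98 without the filter and 95 with quantile normalization, against 164. Leaving out 1 library at a time gave 16 to 22 members higher and 3 lower for untreated KO against WT, 20 to 24 and 1 to 3 with etoposide, 5 to 6 and 19 to 25 for etoposide in WT cells, and 3 to 5 and 9 to 16 in KO cells. For the difference between responses it gave 0 to 1 members lower, and 3 to 8 genes higher and 90 to 126 lower. In KO cells with etoposide against untreated, 1084 to 1467 genes were lower, against 1484. The cause was not tested, except that left-out libraries mean fewer samples. Across 18 same-numbered pairs of libraries in different groups, deviations from the group means correlated at −0.0449 to 0.0453, and a library correlated best with its own number in 13 of 36 checks, so the replicate numbers were not taken to pair libraries; with the replicate block the members higher and lower were 21 and 3, 22 and 1, 5 and 24, and 5 and 14 in the 4 comparisons. Aligned depth of 5.23 to 7.76 gigabases limits mainly the genes of low level, such as Slc7a11 and Vldlr.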

Other observations

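Wider lists of amino acid genes outside the 40 were also counted. Of 21 other genes of amino acid and one-carbon metabolism, 4 were higher and 4 lower in untreated KO cells, and 5 were higher and 5 lower in KO cells with etoposide. The shares, 19% in either direction without etoposide and 23.8% with it, were near or below those of all genes tested (28.1% higher and 21.5% lower, then 22.5% and 21.7%). Gclc, the catalytic subunit that opens glutathione synthesis, was higher in untreated KO cells (0.40 ± 0.029, limma adjusted p = 4.78e-07), as was Tdh, the threonine dehydrogenase used by mouse embryonic stem cells (0.20 ± 0.019), and Shmt1, the cytosolic relative of Shmt2, was lower (−0.17 ± 0.025). Etoposide raised 3 and lowered 5 of the 21 in each genotype (14.3% and 23.8%). Over all genes it raised 14.5% and lowered 10.5% in KO cells, and 20.8% and 13.5% in WT cells. Cbs, the enzyme upstream of Cth, averaged 69.3 ± 1.87 TPM in KO cells with etoposide against 42.5 ± 1.87 TPM in untreated KO cells, and 73.0 ± 2.44 TPM in WT cells with etoposide against 41.3 ± 1.59 TPM in untreated WT cells (0.69 ± 0.042 in KO cells and 0.81 ± 0.042 in WT cells). Ass1, of arginine synthesis, and Mthfd1, of cytosolic one-carbon metabolism, also rose in both, by 0.38 ± 0.034 and 0.23 ± 0.031 in KO cells and 0.34 ± 0.034 and 0.22 ± 0.031 in WT cells.

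Of 12 other amino acid transporters, 7 were higher and 1 lower in untreated KO cells (58.3% and 8.33%, against 28.1% and 21.5% of all genes tested). Their median difference was 0.34. Slc1a1, a glutamate and cysteine carrier, averaged 18.9 ± 0.252 TPM in untreated KO cells against 11.5 ± 1.26 TPM in untreated WT cells (0.67 ± 0.076, limma adjusted p = 1.89e-05). Slc43a2, Slc36a1 and Slc36a4 were higher by 0.33 ± 0.051, 0.41 ± 0.068 and 0.57 ± 0.10. Slc36a4 was near the filter, at 0.917 TPM in untreated WT cells and 1.03 TPM in WT cells with etoposide. It cleared the filter through its KO groups, at 1.85 TPM untreated and 1.57 TPM with etoposide, so its call carries little weight. Slc7a7, a light chain that pairs with Slc3a2, rose with etoposide by 0.43 ± 0.070 in KO cells and 0.72 ± 0.070 in WT cells. Of the 12, 3 rose and 4 fell in KO cells (25.0% and 33.3%, against 14.5% and 10.5% of all genes). In WT cells 5 rose and 3 fell (41.7% and 25.0%, against 20.8% and 13.5%).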
